A study of Mus musculus with 36 samples.

Results

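The CpGs described here are 2672 autosomal cytosines, of 1252534 that could be measured, whose 5-methylcytosine (5mC) was lower in mouse knee cartilage 12 weeks after a joint injury. They were chosen by these measured values, under 3 conditions. Each had at least 10 reads in all 6 oxidative bisulfite (oxBS) libraries of week 12. Every library of the operated limb lay below every library of the non-operated limb, which held for 70238 cytosines, or 5.61% of those measured. The difference of the pooled reads was at least 25 percentage points. The whole rule kept 0.213% of the measured cytosines, and its mirror image, a gain of 25 points, kept 426, or 0.034%. Because the rule used the week 12 limbs, every difference between those limbs in the same DNA is given below as a description with no test.

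Male C57BL/6J mice had destabilization of the medial meniscus (DMM) of the right knee at 12 weeks of age, a surgery that leads to osteoarthritis. The left knee of the same mice was not operated and served as the control, so no sham surgery separates the effect of opening the joint. Cartilage of tibial plateaus and femoral condyles was collected 4 or 12 weeks later, and tissue of 3 knees was pooled for each library. Each limb and week had 3 libraries of RNA-seq, 3 of reduced representation oxBS and 3 of reduced representation bisulfite (BS) sequencing, and the RNA came from other mice than the DNA. The p-values of edgeR, DESeq2 and limma below measure the spread between these pooled libraries, whereas the likelihood ratio test treats reads as independent and carries no spread between libraries.

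In mammalian DNA most CpGs outside CpG islands carry 5mC, which DNA methyltransferases write and copy at cell division. TET enzymes oxidize 5mC to 5-hydroxymethylcytosine (5hmC), an intermediate on a path back to unmodified cytosine that also persists as a mark of its own. BS sequencing reads both marks as C, whereas oxBS reads only 5mC, so the BS percentage minus the oxBS percentage estimates 5hmC. CpGs of intermediate methylation away from promoters often lie in enhancers, whose state differs between cell types. In pooled tissue, fewer cells of a methylated type and less 5mC in each cell cannot be told apart.

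Stretches of the genome that hold several of these CpGs are shown first, because the named chains and genes of the results lie in them. The reference sequence is the plus strand of GRCm38, and each CpG with a member cytosine on either strand is in capitals. The first 5 are the Ccm2l chain at chr2:153071972-153072073 and the Ebi3 chain at chr17:55956195-55956237, both in coding exons, the Zfp703 chain in a coding exon at chr8:26979919-26980075, the Casz1 chain at chr4:148952677-148952735 and the Auh chain in an intron at chr13:52847614-52847686.
Ccm2l chain: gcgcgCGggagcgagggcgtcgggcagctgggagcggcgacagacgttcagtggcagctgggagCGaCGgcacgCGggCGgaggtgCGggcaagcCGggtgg
Ebi3 chain: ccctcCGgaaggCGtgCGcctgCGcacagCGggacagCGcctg
Zfp703 chain: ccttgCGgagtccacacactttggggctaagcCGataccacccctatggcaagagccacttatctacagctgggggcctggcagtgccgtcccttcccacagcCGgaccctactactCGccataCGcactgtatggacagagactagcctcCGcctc
Casz1 chain: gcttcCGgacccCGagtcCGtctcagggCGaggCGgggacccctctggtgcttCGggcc
Auh chain: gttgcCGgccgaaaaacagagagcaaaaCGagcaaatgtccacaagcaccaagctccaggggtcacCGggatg

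The next 3 are shown for the size of their loss or for the gene that holds them. They are an intergenic stretch near Anapc7 at chr5:122448073-122448130, an intron of Fmod at chr1:134038781-134038843, and an intron of Timp2 at chr11:118342976-118343044 that is also the promoter of Cep295nl.
Anapc7 flank: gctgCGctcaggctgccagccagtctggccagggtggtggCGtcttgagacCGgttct
Fmod intron: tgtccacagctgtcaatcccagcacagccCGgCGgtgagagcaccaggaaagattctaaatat
Timp2 intron, Cep295nl promoter: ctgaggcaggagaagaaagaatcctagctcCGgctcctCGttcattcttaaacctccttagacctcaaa

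The last 3 are introns of Runx1 at chr16:92683959-92684088, of Smad3 at chr9:63718874-63718926 and of Tnfrsf11b at chr15:54252916-54252967. In these the letters TGAGTCA, a match to the motif of AP-1 transcription factors, are in capitals too. These stretches were chosen for members near such a match, so each holds one by choice. Other members of Runx1 and Smad3 are not shown.
Runx1 intron: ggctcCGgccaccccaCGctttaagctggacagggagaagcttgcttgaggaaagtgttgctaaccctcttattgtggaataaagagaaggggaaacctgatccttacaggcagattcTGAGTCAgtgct
Smad3 intron: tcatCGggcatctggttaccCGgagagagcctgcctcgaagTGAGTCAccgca
Tnfrsf11b intron: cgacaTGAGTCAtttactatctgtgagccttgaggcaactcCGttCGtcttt

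At week 12 the median 5mC of the 2672 cytosines was 56.2%, 56.5% and 60% of reads in control replicates 1 to 3 and 27.3%, 30.8% and 28.9% in DMM replicates 1 to 3. The means of these medians were 57.6% ± 2.09 (SD, n = 3) in control and 29.0% ± 1.75 (SD, n = 3) in DMM. The pooled difference ranged from -50.3 to -25 points with a median of -27.4, and 17 cytosines differed by at least 40 points. Most started from an intermediate level, since 89.97% of the cytosines had 25 to 75% 5mC in pooled control. The lowest control library was a median of 13.5 points above the highest DMM library, and 293 cytosines had a gap under 5 points.

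Many cytosines lay close to the threshold. There were 652 within 1 point inside it and 888 within 1 point outside it, with median control levels of 54.4% and 53.5% and median DMM levels of 28.9% and 29.0%. A further 503 cytosines differed by 25 points but had overlapping libraries. Median coverage at the members was 20 to 55 reads per library, and a level of 50% from 20 reads has a 95% Wilson interval of 29.9 to 70.1%, from counting error alone.

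**Figure D1:**
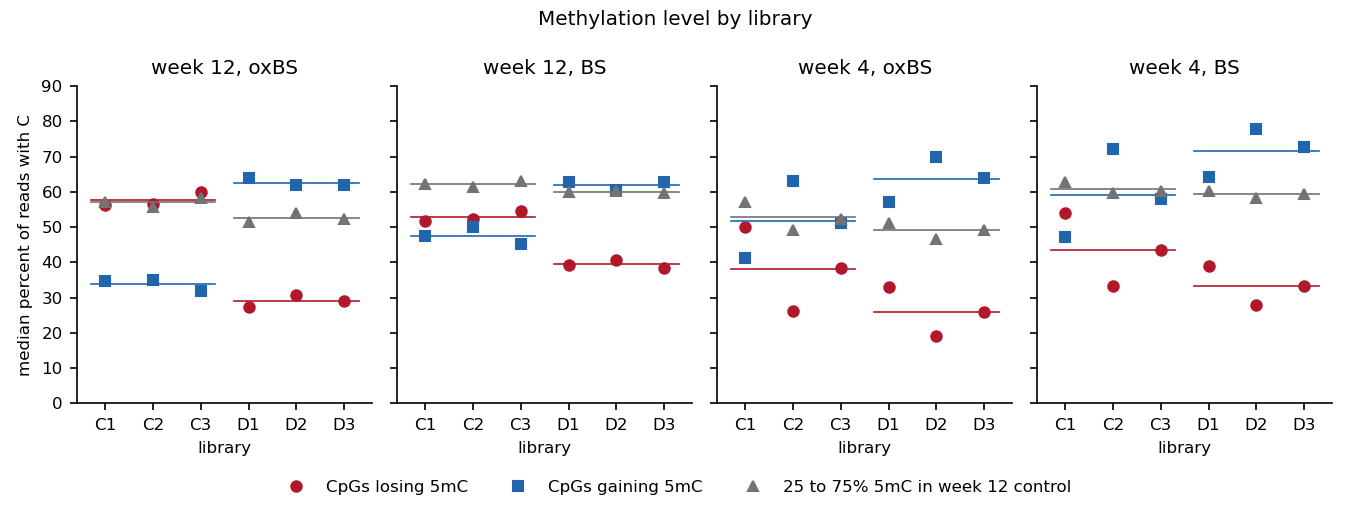
Median percent of reads with C (y axis) in each library (x axis; C1 to C3, control; D1 to D3, DMM) for the CpGs losing 5mC, the CpGs gaining 5mC by the mirror rule and all CpGs with 25 to 75% 5mC in pooled week 12 control; horizontal lines are limb means, and the panels give each week and assay. At week 12 the limbs are apart by the rule; at week 4 the control libraries of the losing CpGs spread from 26.2% to 50% in oxBS, and the gaining CpGs run in the opposite order.

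The same DNA gave several readings that the rule did not use directly. In the BS libraries of week 12, 2451 of the cytosines had 10 reads in all 6, with medians of 51.7%, 52.4% and 54.5% in control and 39.3%, 40.6% and 38.3% in DMM. The control and DMM libraries did not overlap in these medians, but the median difference was -12.2 points against -27.4 in oxBS. In BS 919 cytosines, or 37.5%, had every DMM library below every control library, as did 14.4% of cytosines with 25 to 75% 5mC in pooled control and 4.14% of all measured. The cytosine of the same CpG on the opposite strand, read from other molecules, was measured at 530 members, and for 22 of these both strands were members. Its mean 5mC was 47.1%, 45.3% and 49.3% in control and 32.3%, 35.6% and 35.0% in DMM, with a median difference of -13.8 points. On that strand 95.8% of cytosines were lower in DMM, and 43.0% had no overlap between limbs, against 60.8% and 12.1% on the opposite strand of all cytosines with at least 25% 5mC. Cytosines with 25 to 75% 5mC in pooled control are nearer in level. On their own strand, 67.8% of these were lower in DMM and 18.5% lower without overlap.

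Neighbouring CpGs had lower 5mC too, less so with distance. Among 5004 other cytosines within 100 bases the median difference was -15.0 points and 95.2% were lower. For neighbours with at least 25% 5mC in pooled control, the median difference was -18.97 points at 1 to 10 bases, -17.8 at 11 to 25 bases, -15.0 at 26 to 50 bases, -12.5 at 51 to 100 bases and -3.11 at 2001 to 5000 bases. All 490301 measured cytosines with at least 25% 5mC had a median of -1.59. Cytosines with 25 to 75% 5mC in pooled control had -4.58, and are nearer in level to the neighbours within 100 bases, whose median control level was 49.4%. Neighbours within a fragment share reads with the members, so they are not independent of the rule.

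**Figure D2:**
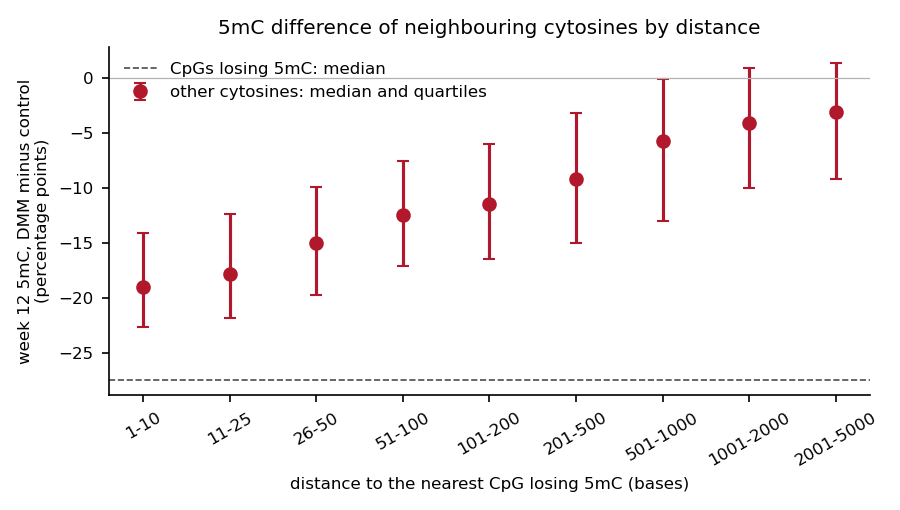
Week 12 5mC difference in percentage points (y axis, DMM minus control, pooled reads) of other measured cytosines with at least 25% 5mC in control, by distance in bases to the nearest CpG losing 5mC (x axis); points are medians, bars span the quartiles, and the dashed line is the median of the losing CpGs, -27.4. The medians run from -18.97 next to the members to -3.11 at 2001 to 5000 bases.

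The 5hmC estimate at week 12 differed in sign between limbs. The mean BS minus oxBS value over 2451 members was -3.76, -4.95 and -4.86 points in control replicates 1 to 3 and 13.4, 10.8 and 10.7 in DMM replicates 1 to 3. The difference of the means was 16.2 points, and 9.52 with negative values set to 0. A true share of 5hmC cannot be below 0, and these values contain the oxBS reads that chose the members. On the opposite strand of 420 members, whose reads did not choose them unless both strands were members, the means were 3.01, 4.72 and 3.89 points in control and 7.54, 4.42 and 3.71 in DMM. There the limbs overlapped, with means of 3.87 ± 0.858 in control and 5.22 ± 2.03 in DMM (SD, n = 3), or 4.06 in DMM without replicate 1. On the opposite strand of all cytosines with at least 25% 5mC in pooled control, the means were 3.47 in control and 4.61 in DMM.

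The week 4 mice were not used by the rule, and 2322 of the members were measured in all 6 oxBS libraries of that week, leaving 350 that were not. Their median 5mC was 50%, 26.2% and 38.5% in control replicates 1 to 3 and 32.9%, 19.2% and 26% in DMM replicates 1 to 3. DMM was lower on average, 26% ± 6.82 against 38.2% ± 11.9 (SD, n = 3), but the limbs overlapped, since control replicate 2 was below DMM replicate 1. At each replicate number the DMM median was below the control median, though whether equal numbers mark the same mice is not given. The median unweighted difference over the members was -11.1 points, against -3.91 over cytosines with 25 to 75% 5mC in week 12 control and -1.11 over those with at least 25%. With pooled reads, which count deep libraries more, it was -3.97 points, against -1.33 over the 25 to 75% set and 0 over all tested cytosines. Control replicate 2 was the deepest week 4 library, with a median coverage of 102 reads against 22 to 87 in the others. The pooled median was 0.35 without control replicate 1 and -14.1 without control replicate 2.

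No member passed the week 4 test, a likelihood ratio test on pooled reads with a drop of 25 points and q under 0.05, which called 5 of 1424658 cytosines lower (0.000351%). At an unadjusted p under 0.05 the same test had 378 members lower (16.3%, against 4.62% of all tested) and 20 higher. For the latter no share of all tested is given. Limma on log2 ratios also called none, with 124 lower at an unadjusted p under 0.05 (5.34%, against 0.544% of all tested) and 0 higher. Of all 1424658 tested, 9093 were higher by limma at that p. Every DMM library lay below every control library at 183 members (7.88%, against 6.70% of the 25 to 75% set and 3.76% of all tested) and above at 6 (0.258%, against 2.61% and 2.39%). With 3 libraries against 3, an exact permutation test of one value cannot go below p = 0.1. Without control replicate 2 the first test called 139 members (5.99%, against 0.182% of all tested), and 1284 lay lower without overlap (55.3%, against 11.4%). Without DMM replicate 1 it called 7 (0.301%, against 0.0106%), and 870 lay lower without overlap (37.5%, against 8.60%). Over all measured cytosines the week 4 oxBS medians were 1.92% to 2.94%, so most had little 5mC to lose. Shares of all tested are therefore no comparison of like level. The 25 to 75% set is nearer in level, and its share is given only for the overlap of all 6 libraries.

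The libraries within a limb differed at week 4 by more at these CpGs than at others of intermediate level, and by about as much as at the CpGs gaining 5mC. The median range over the 6 libraries was 33.0 points, against 32.8 for the gaining CpGs and 22.6 for CpGs with 25 to 75% 5mC in week 12 control. The median SD between control libraries was 12.7 points, against 12.5 and 8.005. Control replicate 1 was the highest library at 76.7% of members (45.9% of the comparison set) and DMM replicate 2 the lowest at 60.2% (39.3%). At the 332 CpGs gaining 5mC at week 12, medians were 41.2%, 63.2% and 51.2% in control and 57.1%, 70.0% and 63.9% in DMM. From highest to lowest, the losing CpGs ordered the libraries as control 1, control 3, DMM 1, control 2, DMM 3 and DMM 2, and the gaining CpGs in exactly the reverse order. In week 4 BS, measured at 2545 members, the losing CpGs had medians of 53.8%, 33.3% and 43.6% in control and 38.9%, 28% and 33.3% in DMM. Mean levels over all measured cytosines were 27.4% to 29.4% in the week 4 oxBS libraries and 31.1% to 31.9% in BS. Whether the makeup of the tissue in each library moved with this order was not tested, since no RNA came from the same DNA samples.

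For 5hmC at week 4, limma called 0 of 2268 members and 0 of all 1273505 cytosines tested (0%). At an unadjusted p under 0.05, 57 members were lower (2.51%, against 1.69% of all tested) and 93 higher (4.10%, against 2.19%). The mean BS minus oxBS value was 3.96, 7.19 and 5.78 points in control and 6.04, 8.19 and 7.23 in DMM, so the limbs overlapped and no control mean was below 0. DMM minus control was 1.51 points at the members and 1.45 in the 25 to 75% set, so the members were like that set.

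The CpGs losing 5mC lay mostly in introns and between genes. Of the 2672, 45.4% were in introns and 36.2% intergenic, against 37.5% and 39.9% of cytosines with at least 25% 5mC in control. Coding exons held 11.5% (17.3% of that background), promoters 3.11% (2.09%), 3' UTRs 2.84%, non-coding exons 0.599% and 5' UTRs 0.412%. CpGs with 25 to 75% 5mC, the set nearest to the members in level, had 40.8% in introns, 39.6% intergenic, 12.5% in coding exons and 3.39% in promoters. Promoter means 1000 bases before to 100 after a RefSeq start. Of all measured cytosines 26.6% were in promoters and 53.2% in sequence as dense in CpGs as an island, which held 5.66% of the 25 to 75% set and 3.67% of the members. Repeats held 3.29% of members, 7.43% of the 25 to 75% set and 13.9% of the background with at least 25% 5mC. The median distance to a transcript start was 21576 bases, between the 20172 of the 25 to 75% set and the 23012 of the background with at least 25% 5mC. Levels were alike across locations, where the median pooled control level was 50.7% to 57.3% and the DMM level 23.0% to 30.1% over the 7 classes. All 19 autosomes held members, at 1.66 to 2.76 per 1000 measured cytosines.

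Genomic neighbours formed 2148 chains, with gaps of at most 100 bases. Of these, 1773 were single cytosines, 274 had 2 members, and the rest, with 3 to 7, held 351 members. In all, 1228 genes held a member in the gene body or, for intergenic members, had the nearest start within 10000 bases, and 819 of them had 1 member. By this count, chosen after the values were seen, Casz1 led with 9, followed by Ccm2l and Pxk with 7, and Hoxa3, Kdm6b, Klf3, Mex3a and Zfpm1 were among those with 6.

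The longest chain, 7 members at chr2:153071977-153072068, lay in a coding exon of Ccm2l, a paralogue of the vascular scaffold protein Ccm2. Its pooled 5mC was 52.0%, 46.2% and 44.8% in control replicates 1 to 3 and 19%, 18.4% and 21.2% in DMM replicates 1 to 3. Coverage summed over the 7 cytosines was 158 to 527 per library, and a read that spans several of them is counted at each. At week 4 it was 52.6%, 18.6% and 32.7% in control and 27.6%, 14.9% and 18.9% in DMM, so control replicate 2 fell within the DMM range. The 7 members of this chain are on the same fragment and largely on the same reads.

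Ebi3, a subunit shared by interleukins 27 and 35, held 6 members in a coding exon that overlaps Gm16712, at chr17:55956200-55956232. Levels were 56.0%, 40.2% and 50.5% in control and 18.5%, 25.5% and 19.1% in DMM. At week 4 they were 44.7%, 15.6% and 38.3% against 18.6%, 5.77% and 21.2%. The pattern of control replicate 2 within the DMM range recurred here.

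Casz1 and Zfp703 encode zinc finger regulators of transcription. The 6 members in Casz1, at chr4:148952682-148952730 in the promoter of the non-coding Gm13205, had 52.0%, 46.6% and 61.6% in control and 32.7%, 26.3% and 10.1% in DMM. The 6 in a coding exon of Zfp703, at chr8:26979924-26980070, had 59.5%, 54.3% and 65.3% in control and 27.6%, 31.4% and 32.6% in DMM. At week 4 the Casz1 chain had 56.6%, 20.4% and 17.8% in control and 27.9%, 19.8% and 20.4% in DMM, so control replicate 1 alone stood apart.

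The chain in an intron of Auh, an enzyme of leucine breakdown, had the largest mean difference of the 12 leading chains, -34.9 points over 4 members. Chains of equal size were ranked by this difference, and Auh entered the 12 in that way, so its lead comes partly from the choice. Its levels were 58.3%, 60.8% and 63.9% in control and 27.8%, 25% and 24.1% in DMM, and in BS 48.5%, 56.4% and 59.8% against 29.6%, 35.3% and 31.1%. BS separated the limbs there too, whereas in oxBS the rule fixes this. Levels at week 4 were 58.0%, 27.3% and 31.7% against 35.0%, 17.6% and 27.7%.

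Other leading chains lay in coding exons of Taok3, a kinase of the stress-activated MAPK pathway, of Tnrc6c, a component of microRNA silencing, and of Exoc3l2, a relative of exocyst subunits. Another 4 were intergenic, the nearest starts being those of Gm47708, Dio3os, Usp12 and Prss38, at 18673 to 81947 bases. Mean differences of these 7 ranged from -33.6 to -28.8 points. In week 12 BS the limbs overlapped at the Casz1 chain and at the chains near Gm47708, Dio3os, Usp12 and Prss38. Near Prss38, with 3 cytosines measured in BS, the mean was 5.73 points higher in DMM. The chains near Dio3os and Prss38 and in Tnrc6c were not measured in oxBS at week 4. Of the 9 chains measured then, 8 were highest in control replicate 1. The exception was Zfp703, where 2 of the 6 members were measured and DMM replicate 1 was highest at 43.1%.

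Member cytosines outside these 12 chains, with at least 20 reads in every library, were also ranked singly. The largest difference was at chr5:122448125, 25681 bases from the start of Anapc7, a subunit of the anaphase-promoting complex. That cytosine is 1 of 3 members in the Anapc7 flank shown above. The 5mC at chr5:122448125 was 66.7%, 55.9% and 64.3% in control and 21.9%, 28.1% and 22.0% in DMM. The next was in an intron of Clpx, a subunit of a mitochondrial protease, at chr9:65304077, with 55.3%, 62.5% and 68.6% against 23.5%, 24% and 22.5%. Cytosines in coding exons of Mgat1, an enzyme of N-glycan processing, and of Mthfd1, an enzyme of folate metabolism, differed by -36.7 and -35.8 points in pooled reads. Each of these 2 genes held 3 members. At each of these 4 cytosines the limbs did not overlap at week 12, as the rule requires.

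Genes of cartilage and bone were looked up from fixed lists. Members lay in or within 10000 bases of 21 list genes, 44 in all: 1 of 19 cartilage matrix genes (Fmod), 3 of 12 of matrix turnover (Mmp14, Timp2, Htra1), 6 of 19 of ossification and hypertrophy (Runx1, Runx3, Col1a1, Alpl, Pth1r, Tnfrsf11b), 6 of 19 of TGF-beta and BMP signalling (Smad3, Smad6, Smad7, Gdf5, Ltbp1, Ltbp3) and 5 of 16 of WNT signalling (Lrp5, Axin2, Tcf7l1, Tcf7l2, Dkk3). The 20 limb patterning factors of the list had no member at 4748 measured cytosines, whereas Hoxa3, which is not on it, held 6, and Lrrc15 had none at 52. The 21 genes were 20.6% of the 102 list genes with measured cytosines, against 7.85% of 22146 genes counted the same way. That share also depends on how many measured cytosines each gene holds. Per 1000 measured cytosines the lists together held 3.07 members, against 2.13 over the whole set. The lists were drawn up with earlier results known, and the authors reported differentially methylated regions at Smad3, Lrp5, Tcf7l1 and Tnfrsf11b. They also named Runx1 where methylation and expression in human datasets met their mouse data. Timp2 stood in a category they drew from expression and methylation together. The excess of the lists is therefore no independent result. By list there were 1.64 members per 1000 at cartilage matrix genes, 10.9 at matrix turnover and 6.09 at ossification and hypertrophy. There were 3.35 at TGF-beta and BMP genes, 4.32 at WNT genes and 0 at limb patterning factors. These rates count all measured cytosines, but only 490301 of 1252534 had at least 25% 5mC in pooled control and could drop by 25 points. The rule thus holds genes with mostly unmethylated CpGs near 0. How many cytosines of each list could meet the rule is not given, so the rates mix level and loss. Of 12 lists of cell type markers, those of osteoblasts (Col1a1, Alpl) and erythroid cells (Slc4a1) held members, 3 and 1, and the 10 chondrocyte markers had none at 920 cytosines. At 2.13 per 1000 over the whole set, few members would fall among 920 cytosines in any case.

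Runx1, a transcription factor of cartilage and blood cells, had the most, 5 members in introns. Their 5mC was 53.0%, 56.1% and 54.7% in control and 25.2%, 23.0% and 24.5% in DMM, and in BS 57.4%, 57% and 57.6% against 45.2%, 40.8% and 35.6%. At week 4 it was 60.1%, 28.5% and 41.3% against 32.1%, 34.0% and 30.9%, so control replicate 2 was the lowest library.

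In the TGF-beta pathway, Smad3, which carries the signal to the nucleus, had 4 intronic members at 49.7%, 57.7% and 51.9% in control and 22.4%, 29.2% and 28.3% in DMM. Smad6 and Smad7, which inhibit the pathway, had 2 and 1, with limb means of 55.6% against 30.6% and 59.8% against 29.8%. Ltbp1 and Ltbp3, which bind latent TGF-beta, and Gdf5, a BMP ligand of joint formation, had 1 each. Of the WNT genes, the co-receptor Lrp5 and the beta-catenin partners Tcf7l1 and Tcf7l2 had 3 each, all intronic, with differences of limb means of -29.1, -29.0 and -26.04 points.

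Timp2, an inhibitor of matrix metalloproteinases, had 4 members, 2 of them in the promoter of Cep295nl and among the largest losses, -43.3 and -39.8 points. These 2 had fewer than 20 reads in some library, so they were not part of the ranking of single cytosines above. Over the 4 the levels were 58.8%, 63.5% and 55.0% in control and 25.7%, 30.3% and 27.8% in DMM. The 4 members assigned to Mmp14, a membrane-bound metalloproteinase, lay outside the gene but within 10000 bases of its body, at least 12255 bases from the nearest start, with 46.0%, 42.7% and 58.6% against 23.9%, 19.6% and 26.1%. Fmod, the collagen-binding proteoglycan fibromodulin, had 2 in an intron, with 56.9%, 46.8% and 56.2% against 28.2%, 32.3% and 26%. Tnfrsf11b, the decoy receptor osteoprotegerin, had 2 in an intron, with 59.1%, 80.0% and 75% in control and 23.6%, 51.9% and 28.3% in DMM. All these limbs are apart by the rule; in BS the difference of limb means was negative at 18 of the 21 genes and positive at Tnfrsf11b, Axin2 and Dkk3 (3.12, 13.2 and 4.83 points). At week 4, 20 of the 21 were lower in DMM by unweighted means and 2 without overlap, near the shares of the members as a whole (93.8% and 7.88%, against 68.7% and 6.70% of the 25 to 75% set), and control replicate 1 was the highest library at 17.

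**Figure D3:**
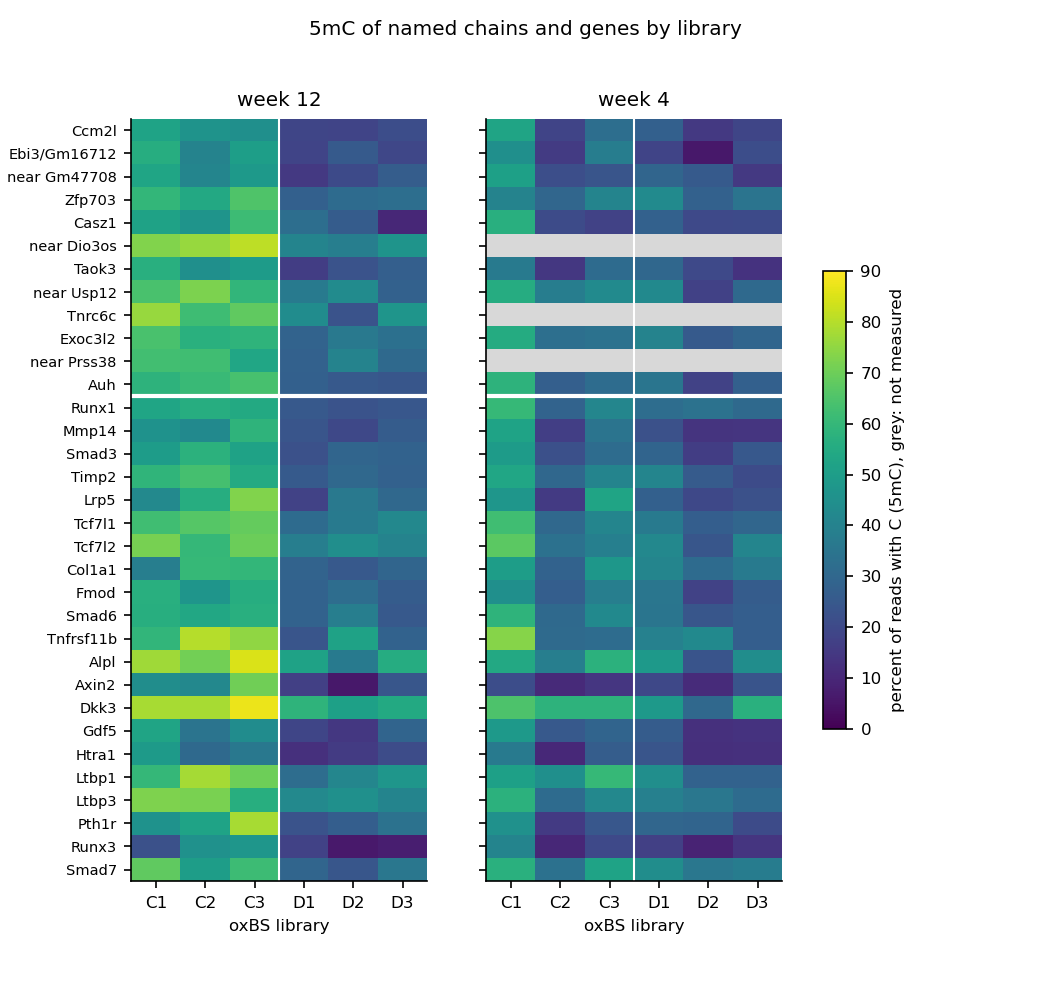
Percent of reads with C in oxBS (colour, 0 to 90%) for the 12 leading chains (above the white line) and the 21 list genes (below it), pooled over the members of each, in every library (columns; C1 to C3, control; D1 to D3, DMM); grey was not measured. At week 12 the 3 control columns are lighter than the 3 DMM columns by the rule, whereas at week 4 control replicate 1 is the lightest at most genes.

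The sequence around the members was searched for 13 motifs on both strands, up to 150 bases to either side of the cytosine: AP-1 TGANTCA, RUNX TGTGGT, ETS and PU.1 GAGGAAGT, the GATA factors AGATAA, TEAD GGAATG, NF1 TTGGCA, CEBP TTGCNNAA, SOX ACAAAG, MEF2 TAAAAATA, E-box CAGCTG, NFAT GGAAAA, NF-kB GGGACTTTC and SP1 GGGCGG. AP-1 letters stood around 379 members, 14.2%, against 8.62% of CpGs with 25 to 75% 5mC in control, 6.81% of the gaining CpGs and 4.70% of all measured. NF1 letters were near 23.6% (16.8%, 9.62% and 10.5%), NFAT letters near 29.0% (23.7%, 16.2% and 17.1%) and E-box letters near 25.4% (21.1%, 19% and 17.0%). GATA letters were near 7.52% of losing and 16.4% of gaining CpGs (11.3% of the 25 to 75% set), and ETS and PU.1 letters near 1.57% and 9.86% (2.27%). RUNX, TEAD, SOX, CEBP and SP1 letters were within 2 points of the 25 to 75% set. MEF2 letters were near 3.74% (2.45% of the 25 to 75% set, 2.35% of the gaining CpGs and 1.24% of all measured), and NF-kB letters were near 10 members, 0.374% (0.298% of the 25 to 75% set). Members of a chain share these windows, and a match is a description of letters, not a bound site.

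The AP-1 letters lay close to the cytosines. Per 1000 bases there were 0.539 matches at 0 to 50 bases from the members, 0.371 at 200 to 250 and 0.292 at 450 to 500, whereas the 25 to 75% set had 0.301 at 0 to 50 bases and 0.285 at 400 to 450. Members with and without AP-1 letters had similar week 4 values, with median unweighted differences of -12.4 and -10.8 points and no overlap between limbs at 9.64% and 7.59%.

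**Figure D4:**
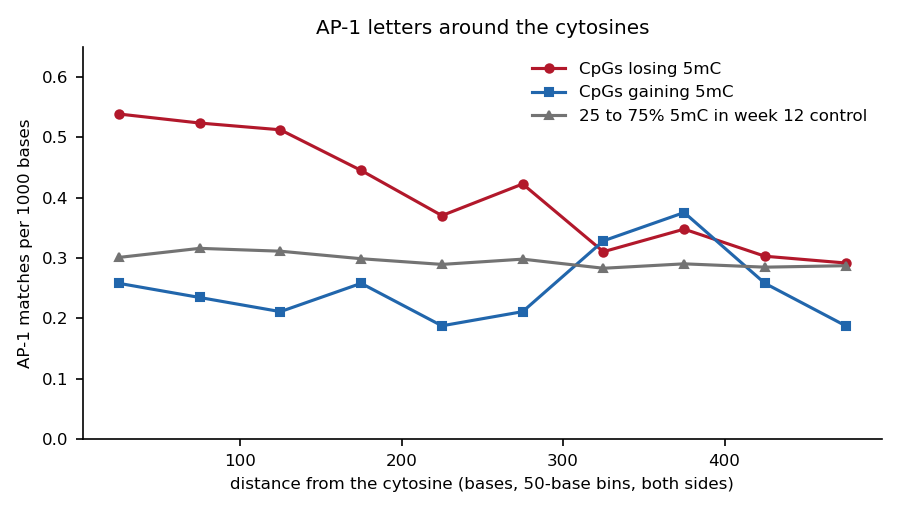
Matches to the AP-1 letters per 1000 bases (y axis) by distance in bases from the cytosine (x axis, bins of 50 bases, both sides) for the CpGs losing 5mC, the CpGs gaining 5mC and all CpGs with 25 to 75% 5mC in control. The losing CpGs start at 0.539 and come down to 0.292 at 450 to 500 bases, and the 25 to 75% set stays near 0.3.

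RNA of the genes that hold members was measured in other mice of the same design. At week 12, 1009 of the 1228 genes had enough counts, and edgeR called 0 of them at an adjusted p under 0.05, against 1 of 15093 genes called higher (0.00663%) and 0 called lower (0%). At an unadjusted p under 0.05, 194 were higher in DMM (19.2%, against 8.85% of all genes) and 58 lower (5.75%, against 7.31%). The median log2 fold change was 0.15 against 0.02 for all genes, and 63.2% were higher in DMM against 52.0%. DESeq2 called 67 of 959, 53 higher and 14 lower (6.99%, against 3.78%). In edgeR, 56 were called without control replicate 2 (5.50%, against 3.16% of all genes) and 14 without DMM replicate 3 (1.38%, against 0.472%).

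At week 4 the direction was the other one. Of 1005 genes tested edgeR called 0, as it did of all genes (0% higher and 0% lower). At an unadjusted p under 0.05, 56 were higher (5.57%, against 5.96%) and 95 lower (9.45%, against 7.44%), the median log2 fold change was -0.20 against -0.03, and 33.2% were higher against 47.5%. DESeq2 called 31 of 1005, 15 higher and 16 lower (3.08%, against 3.33%). The median deviation of these genes from their own mean was, on the log2 scale, 0.18, 0.18 and -0.10 in control replicates 1 to 3 and 0.14, -0.12 and -0.26 in DMM, so both limbs held libraries above and below 0.

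Of the 21 list genes, edgeR called none at week 12, 12 were higher and 0 lower at an unadjusted p under 0.05 (8.85% and 7.31% of all genes), and DESeq2 called 6 (3.78% of all genes), namely Fmod, Timp2, Alpl, Dkk3, Gdf5 and Pth1r. Their median log2 fold change was 0.62 at week 12 and -0.20 at week 4, when 10 of the 21 were higher (47.5% of all genes), with 1 higher and 1 lower at an unadjusted p under 0.05 (5.96% and 7.44%). Fmod had 226, 285 and 495 CPM (counts scaled to library size) in control and 1617, 1687 and 848 in DMM, with no overlap and a log2 fold change of 2.05 ± 0.37 (SE; edgeR adjusted p = 0.167; DESeq2 adjusted p = 1.14e-06). At week 4 it had 619, 528 and 199.6 CPM in control and 1474, 1071 and 845 in DMM, also with no overlap, and DESeq2 called Fmod alone of the 21 (3.33% of all genes).

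Timp2 had 244, 387 and 389 CPM in control and 1008, 789 and 429 in DMM at week 12, a log2 fold change of 1.13 ± 0.33 (SE, edgeR adjusted p = 0.256). Pth1r, the receptor for parathyroid hormone and its related protein, had 153, 189 and 150.1 CPM against 349.8, 341 and 219. Alpl, the phosphatase of mineralizing cells, had 699, 744 and 455 against 1291, 1512 and 991. The DMM libraries of these 3 genes were all above the control libraries at week 12, and they overlapped at week 4. Without overlap, 7 of the 21 list genes lay higher and 0 lower at week 12, and 2 higher and 1 lower at week 4. Over all genes tested these were 1557 and 1266 of 15093 at week 12 and 1571 and 1622 of 15169 at week 4. Runx1, with the most members of a list gene, had 72.6, 74.9 and 59.4 CPM against 70.6, 84.4 and 69.1, and Smad3 81.8, 85.3 and 76.4 against 92.8, 111 and 81.6, both with overlap.

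The chain genes were measured as well. Ebi3 had 47.2, 34.9 and 43.5 CPM in control and 25.6, 23.9 and 38.3 in DMM at week 12, and Zfp703 had 14.3, 24.7 and 15.2 against 27.2, 33.9 and 21.3. Both overlapped, with edgeR adjusted p = 0.299 and 0.305, as did Casz1, Taok3 and Tnrc6c. Auh had 27.5, 32.2 and 32.5 CPM against 34.1, 36.41 and 36.39, without overlap (edgeR adjusted p = 0.411). Ccm2l stayed between 1.10 and 1.59 CPM in all 6 libraries. At week 4 Ccm2l had 4.49, 3.15 and 2.71 CPM in control and 2.68, 1.86 and 1.45 in DMM, and Casz1 had 3.43, 2.005 and 4.30 against 1.45, 1.76 and 1.07. Neither overlapped between limbs at week 4, with edgeR adjusted p = 0.381 and 0.32. Auh lay lower in DMM without overlap then, at 39.9, 31.06 and 32.3 against 30.6, 29.3 and 30.9 CPM (edgeR adjusted p = 0.638), whereas Ebi3, Zfp703, Taok3 and Tnrc6c overlapped.

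Genes that write, copy or remove methylation were tested by RNA too, and edgeR called 0 of 12 at either week, with 0 higher and 2 lower at an unadjusted p under 0.05 at week 12 (8.85% and 7.31% of all genes) and 1 higher and 3 lower at week 4 (5.96% and 7.44%). Dnmt1, which copies methylation at replication and itself held 2 members, had 189.9, 85.1 and 159 CPM in control and 76.0, 58.2 and 83.6 in DMM at week 12. The limbs did not overlap, and the log2 fold change was -0.99 ± 0.29 (SE; edgeR adjusted p = 0.256, DESeq2 adjusted p = 0.0275). Tet1, which oxidizes 5mC, had 5.89, 5.56 and 6.86 CPM against 11.2, 9.87 and 10.8 at week 4, a log2 fold change of 0.80 ± 0.23 (SE; edgeR adjusted p = 0.272, DESeq2 adjusted p = 0.0215). Tet3, of the same enzyme family, had 27.0, 24.2 and 26.5 CPM against 21.2, 16.02 and 15.7 at week 4, a log2 fold change of -0.55 ± 0.21 (SE; edgeR adjusted p = 0.348, DESeq2 adjusted p = 0.186). The methyltransferase Dnmt3a and Gadd45g also lay lower in DMM without overlap at week 4, with edgeR adjusted p = 0.323 and 0.352, and Tet2 lay higher, with edgeR adjusted p = 0.444. At week 12, Dnmt3l and Tdg lay lower without overlap beside Dnmt1, and Gadd45g lay higher. Of all 15093 genes tested at week 12, 1557 lay higher and 1266 lower without overlap. Of the 15169 tested at week 4, 1571 lay higher and 1622 lower. DESeq2 called none of the 12 other than Dnmt1 at week 12 and Tet1 at week 4.

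**Figure D5:**
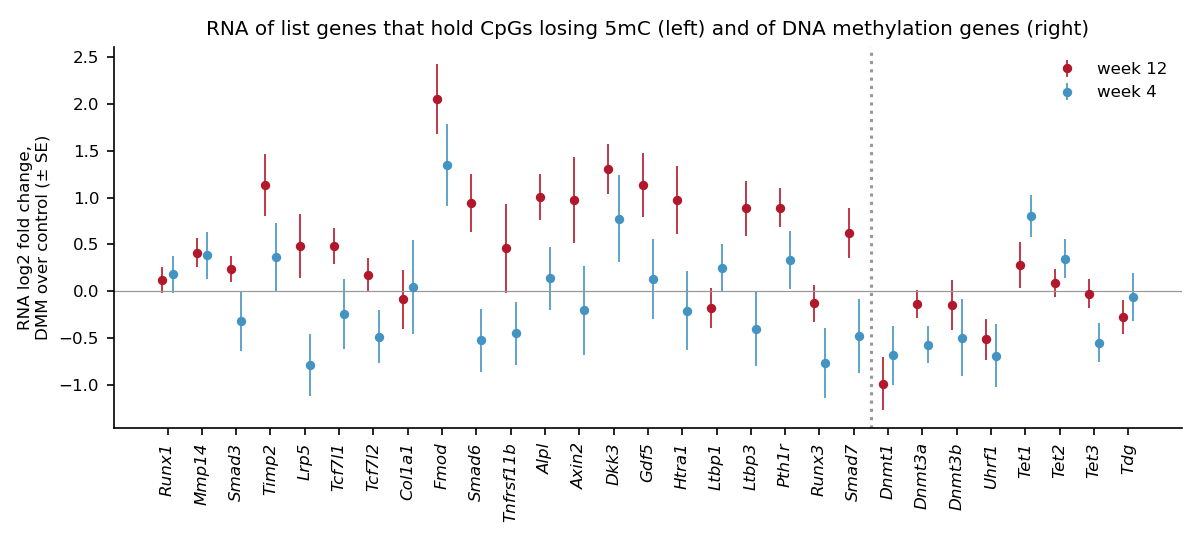
RNA log2 fold change of DMM over control (y axis; points, edgeR estimates; bars, standard errors; 3 libraries per limb) at week 12 (red) and week 4 (blue) for the 21 list genes that hold CpGs losing 5mC, left of the dotted line, and for 8 of the 12 genes of DNA methylation, right of it. Fmod is highest at both weeks, at 2.05 in week 12, and Dnmt1 is lowest at week 12, at -0.99.

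The RNA also shows which tissues the dissections held. Chondrocyte markers summed to 2989 to 6316 CPM in control and 6661 to 9813 in DMM at week 12, with Col2a1, Acan and Comp in every library and Matn1 near 1 CPM. Markers of synovial and fibrous tissue summed to 476 to 856 CPM in control and 1373 to 3222 in DMM. Neutrophil and marrow markers were at 36272 to 61370.2 CPM against 29462 to 47510, and skeletal muscle markers at 86.3 to 14711 against 466 to 10060. Of the 12 lists, the sums of the chondrocyte and the synovial and fibrous markers lay without overlap above control in DMM, and the sum of B lymphocyte markers, at 287.99 to 375 against 204 to 287.93 CPM, just below it. Taken singly, Comp was the 1 of 10 chondrocyte markers whose limbs did not overlap. Osteoblast and osteocyte markers summed to 8888 to 16569 CPM in control and 13808 to 17176 in DMM, with overlap. Of these 9 markers Ibsp, Sp7, Dmp1, Sost, Mepe and Alpl were higher in DMM without overlap, whereas Col1a1, Bglap and Phex overlapped. Col1a1 made up the largest part of that sum, with means of 8042 CPM in control and 7544 in DMM. Of the 7 synovial and fibrous markers 5 were higher without overlap, Col3a1 making up most of the sum with means of 490 CPM in control and 2381 in DMM, whereas Pdgfra and Pi16 overlapped. Among all 15093 genes tested at week 12, 1557 were higher and 1266 lower without overlap. At week 4, synovial and fibrous markers were at 398 to 2714 CPM against 3945 to 5815, osteoblast and osteocyte markers at 9240.2 to 10267 against 12092 to 15691 and muscle markers at 5846 to 20968 against 513 to 3383, and these 3 lists did not overlap. Most of the osteoblast and osteocyte difference was Ibsp, with means of 4254 CPM in control and 8229 in DMM, whereas Sp7 had 51.1 and 37.8, Sost 217 and 148 and Col1a1 2702 and 2779. Chondrocyte markers overlapped then, at 3770.4 to 8349 against 3169 to 6801. The part of these tissues in the methylation and RNA values above was not tested.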

How the data were processed

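The members and the gene lists were chosen with earlier results of these data known. The authors deposited RNA as raw counts per RefSeq transcript (STAR and featureCounts per the submitters' notes) and methylation as coverage counts and the percent of reads with C per cytosine and strand (Bismark and mm10 in the notes), down to a coverage of 10. MspI digestion confines the measured CpGs to part of the genome. RNA totals were 27706547 to 62737656 counts, and median oxBS coverage was 22 to 102 reads.

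Members were annotated with RefSeq on GRCm38, and each member cytosine was checked to be a CpG there. Looked up were the 12 chains with the most members, ties broken by the more negative mean difference, list genes with members, and 12 genes of DNA methylation. The 10 largest single differences outside these chains with at least 20 reads were looked up too, and not all are named above. For RNA, a gene held a member in its body or, for intergenic members, at the nearest start within 10000 bases; list and marker genes also counted members within 10000 bases of the body. RNA was tested within each week on 1 transcript per gene with edgeR 4.0.16 (TMM, filterByExpr, quasi-likelihood, robust), with DESeq2 1.42.0 as the alternative. Week 4 5mC was tested with a pooled likelihood ratio test as in methylKit, and 5hmC with limma 3.58.1, in R 4.3.3 and Python 3.11.15. Adjustment was Benjamini-Hochberg over all features.

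Whether equal replicate numbers mark the same mice is not given in the sources used here. Deviations of same-numbered oxBS libraries correlated at 0.267, 0.217 and 0.00183 at week 4 and at -0.0593, -0.0424 and 0.0413 at week 12. These values do not settle the pairing, and the numbers were not taken as pairs. In week 12, control replicate 2 and DMM replicate 1 share a style of title, and the BS file of the latter carries another number than its title. The oxBS deviations of these libraries correlated at 0.118, the largest value across limbs in that week. Whether they were a separate batch is not stated. Each of the 6 BS libraries of week 12 correlated best with the oxBS library of its own title.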

Additional observations from a re-analysis of the deposited data

How the results depend on the processing

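The number of members depended on the thresholds. It was 1247 with at least 20 reads, 590 with a drop of 30 points, 9471 with a drop of 20 points, and 3295 to 6043 with 1 library left out, which loosens the rule by construction. Without both control replicate 2 and DMM replicate 1 it was 5062. At week 4, calls of lower 5mC ran from 0 to 139 with 1 library left out, the most without control replicate 2, and 7 were called without DMM replicate 1. Members without overlap numbered 74 of 1186 with at least 20 reads (6.24%, against 3.89% of all tested) and 193 to 1284 with 1 library left out (8.31% to 55.3%, against 7.37% to 11.4% of all tested at those ends), with 870 without DMM replicate 1 and 1284 without control replicate 2. The pooled median difference ran from -14.1 to 0.35, the first without control replicate 2 and the last without control replicate 1. The week 12 5hmC difference was 9.52 points with negative values set to 0 and 15.3 without DMM replicate 1. For RNA at week 12, DESeq2 called 67 member genes and 0 to 56 were called by edgeR with 1 library left out, 56 without control replicate 2 and 14 without DMM replicate 3; at week 4 these were 31 and 0 to 1, the 1 without control replicate 3 (0.0988%, against 0.29999% of all genes). The causes were not tested. Depth limits single cytosines: a level of 50% from 10 reads has a 95% Wilson interval of 23.7 to 76.3%.

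With the replicate number as a block, 0 members passed at week 4 for 5mC with 25 points and 0 for 5hmC, while 359 members (15.5%, against 0.678% of all tested) were lower at q under 0.05 at any size; that test carries no spread between libraries, and limma on log2 ratios with the same block called 0 members and 0 of all tested. In RNA the block gave 47 member genes at week 12 (4.66%, against 2.07% of all genes) and 11 at week 4 (1.09%, against 1.63%). Correlations of same-numbered RNA libraries were -0.578, 0.297 and -0.274 at week 12 and 0.378, -0.362 and 0.0848 at week 4, and not every library correlated best with its own number. In week 4 oxBS, control and DMM replicates 1 and 2 correlated at 0.267 and 0.217 with their own number and at -0.191 and -0.302 across, whereas replicate 3 had 0.00183. In an alternative added after seeing the data, 1345 of 2322 members (57.9%, against 11.2% of all tested) were lower in DMM in every same-numbered pair at week 4. The share was 20.3% of cytosines with at least 25% 5mC in pooled control. Most of all tested cytosines were nearly unmethylated, so the 5mC shares of all tested in this part are no comparison of like level.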

Other observations

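A few members lay in promoters of genes of known pathways, and these were picked out after their values were seen. One was 5' of Smad5, a transducer of BMP signals, with 47.7% 5mC in pooled control and 17.1% in pooled DMM. Another was 5' of Ctnnb1, which encodes beta-catenin, with 46.3% and 19.5%. Single members 5' of Nedd4, a ubiquitin ligase, and Nsd1, a histone H3 lysine methyltransferase, had 51.2% and 14.3%, and 53.4% and 23.6%.

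Of the 12 member genes with the smallest RNA p-values at week 12, 4 were also chosen after their values were seen, and none passed edgeR's adjusted threshold. Gdf10, a relative of the BMP ligands with 1 member, had 59.8, 71.2 and 54.7 CPM in control and 125, 137 and 115 in DMM (log2 fold change 1.02 ± 0.14 SE, edgeR adjusted p = 0.106). Pcolce, an enhancer of procollagen cleavage with 3 members, had 123, 153 and 119.8 CPM against 390.2, 375 and 219. Antxr1, a collagen-binding receptor with 2 members, had 12.0, 9.87 and 13.3 CPM against 35.9, 35.2 and 21.4. Nfix, an NF1 family transcription factor with 5 members, had 21.2, 28.9 and 18.9 CPM against 46.2, 49.2 and 39.9.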
